A study of Mus musculus with 6 samples.

Results

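The genes described here build or control the inner root sheath, the rigid sleeve of cells that surrounds and moulds the growing hair shaft. They are the keratin genes Krt25, Krt27, Krt28, Krt71, Krt72, Krt73 and Krt74, the trichohyalin gene Tchh and the transcription factor gene Gata3. They were taken by symbol, and all 9 were found among the 23377 genes of the count table; 7 of the 9 had enough counts to test. RNA-seq was made from hair follicle stem cells of C57BL/6 mice, collected by flow sorting, with 2 libraries of genotype Ring1a/b-/- (called RingKO here, as in the titles) and 2 of genotype WT, each from 3000 cells copied and amplified by SMART-seq2. Either Ring1a or Ring1b supplies the ubiquitin ligase of Polycomb repressive complex 1, which marks and silences developmental genes. The labels of these libraries state no sorting marker, Cre promoter, age, sex, hair cycle stage or pooling of animals. No label says that the 2 libraries of a genotype came from separate mice, so the p-values reflect the spread from library to library alone, which may be technical.

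Keratin filaments form from pairs of a type I and a type II keratin, and the inner root sheath uses its own set. Of the genes described here, Krt25, Krt27 and Krt28 encode type I partners, and Krt71, Krt72 and Krt73 type II partners. Krt74, a transcribed pseudogene in the mouse according to RefSeq, is counted here with the type II genes. Trichohyalin is the granule protein of the sheath that embeds the filaments and is crosslinked by transglutaminases as the cells harden. Gata3 is a zinc finger factor needed in mice for the inner root sheath lineage, and is also a factor of T cells and of the interfollicular epidermis. Lgr5-positive cells of a growing follicle lie in the lower outer root sheath, next to the progenitors of these layers.

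The 4 libraries held 2785843 to 7740945 counts, the RingKO pair being the deeper. Ring1 stood at 15.5 and 18.4 CPM (counts scaled to library size, with TMM factors) in RingKO libraries and at 31.9 and 29.4 CPM in WT libraries. The Ring1b gene, Rnf2, had 151 and 153 CPM in RingKO and 144 and 87.8 CPM in WT libraries; neither gene passed edgeR's test, and since the deleted exons are not given, whole-gene counts do not check the genotype. Lgr5, whose GFP reporter was used to sort the series' ChIP cells, was found in every library (251 and 240 CPM in RingKO, 140 and 194 CPM in WT), as were the outer root sheath keratin genes Krt5 and Krt14. Cd34, which marks the bulge and like Lgr5 was named after its values were seen, was low at 15.3 and 2.61 CPM in RingKO and 24.3 and 20.4 CPM in WT libraries.

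Since the keratin genes lay lower together in the RingKO libraries, the 250 bases before the start site of the 5 abundant ones are shown, with those of Gata3 for contrast. The sequences are RefSeq's on build GRCm38.p6, read 5′ to 3′ on the strand of the gene; the counts were made on mm9, and 8 of the 9 genes had an entry. Capitals mark TATAAA within the 40 bases before the start, on the strand of the gene, and the GATA words, searched on both strands: AGATAA or its variant ending in G, and TGATAA or its variant ending in G.
Krt25 (chr11:99322952-99323201, minus strand): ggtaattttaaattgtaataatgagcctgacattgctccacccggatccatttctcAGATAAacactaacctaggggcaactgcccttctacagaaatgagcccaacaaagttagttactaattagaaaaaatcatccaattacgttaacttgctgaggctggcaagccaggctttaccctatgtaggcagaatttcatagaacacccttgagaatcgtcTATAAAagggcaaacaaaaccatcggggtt
Krt27 (chr11:99351119-99351368, minus strand): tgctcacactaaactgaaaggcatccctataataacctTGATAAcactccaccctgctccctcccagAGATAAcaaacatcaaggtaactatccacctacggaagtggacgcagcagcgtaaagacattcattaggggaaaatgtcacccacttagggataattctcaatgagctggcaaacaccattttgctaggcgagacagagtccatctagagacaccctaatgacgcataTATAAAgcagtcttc
Krt28 (chr11:99374904-99375153, minus strand): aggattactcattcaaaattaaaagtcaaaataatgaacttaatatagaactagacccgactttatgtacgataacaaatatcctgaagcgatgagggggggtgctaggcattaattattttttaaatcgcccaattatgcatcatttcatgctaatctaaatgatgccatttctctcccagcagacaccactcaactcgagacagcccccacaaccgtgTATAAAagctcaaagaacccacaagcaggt
Krt71 (chr15:101743098-101743347, minus strand): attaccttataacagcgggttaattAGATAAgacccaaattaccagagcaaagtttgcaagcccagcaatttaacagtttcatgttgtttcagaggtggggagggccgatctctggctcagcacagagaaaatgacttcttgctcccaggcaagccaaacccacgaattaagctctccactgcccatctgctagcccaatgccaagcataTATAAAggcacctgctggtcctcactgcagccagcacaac
Krt73 (chr15:101802361-101802610, minus strand): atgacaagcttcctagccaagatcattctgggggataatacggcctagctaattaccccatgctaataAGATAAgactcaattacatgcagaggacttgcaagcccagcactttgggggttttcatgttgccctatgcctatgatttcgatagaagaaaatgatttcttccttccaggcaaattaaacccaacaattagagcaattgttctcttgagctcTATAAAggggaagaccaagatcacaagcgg
Gata3 (chr2:9878601-9878850, minus strand): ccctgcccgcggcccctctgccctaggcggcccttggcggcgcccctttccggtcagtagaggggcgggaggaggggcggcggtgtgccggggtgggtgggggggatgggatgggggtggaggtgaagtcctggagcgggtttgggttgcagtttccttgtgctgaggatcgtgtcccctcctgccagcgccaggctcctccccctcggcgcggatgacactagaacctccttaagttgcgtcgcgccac

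All 5 of these keratin promoters held TATAAA in the last 40 bases, beginning 30 bases before the start in Krt25, Krt28 and Krt73, 15 in Krt27 and 40 in Krt71. Of the 32851 mouse promoters of the same source, 2.31% did. The promoters of Krt72, Tchh and Gata3 held no TATAAA there. A GATA word stood in Krt25, Krt71 and Krt73 (1 in each), in Krt27 (2) and in Tchh (2), and none in Krt28, Krt72 or Gata3, against 26.5% of all promoters. No GATA word overlapped a TATAAA. Krt71 and Krt73, both type II, were the most alike pair, with 155 of 250 bases identical in a global alignment and a shared run of 14 bases, TTGCAAGCCCAGCA. The Gata3 promoter was of another kind, with 70.0% G or C and 19 CpG dinucleotides, against 38.8% to 48.0% and 3 to 6 CpG in the 5 keratin promoters. These matches describe letters and are not binding sites.

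Summed over the 7 keratin genes, the level was 1149 and 1267 CPM in the RingKO libraries and 2924 and 2322 CPM in the WT libraries. The RingKO mean was 1208 ± 83.4 CPM and the WT mean 2623 ± 426 CPM (SD, n = 2 each), so the RingKO level was 46.1% of the WT level. The groups did not overlap, and the RingKO libraries lay close to each other. The type I genes summed to 558 and 651 CPM in RingKO and 1432 and 1219 CPM in WT libraries, and the type II genes to 591 and 616 CPM in RingKO and 1492 and 1102 CPM in WT libraries. Both partners of the filament were thus lower by a like factor: 45.6% of WT for type I and 46.5% for type II. The ratio of type I to type II counts overlapped between genotypes, at 0.945 and 1.06 in RingKO and 0.960 and 1.11 in WT libraries. In sorted bulk cells, fewer cells of the sheath lineage and less RNA per cell cannot be told apart. The genes are not ranked against each other by level, because transcript lengths were not used here.

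**Figure D1:**
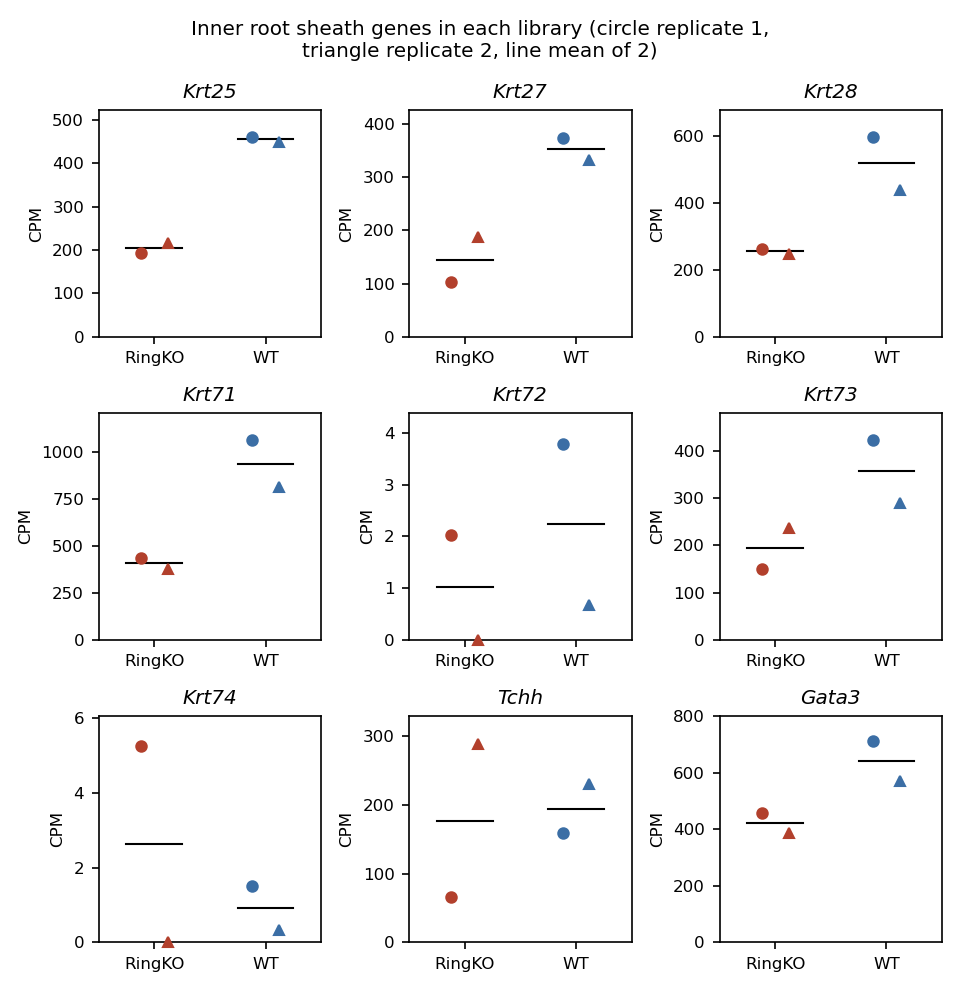
Level of each of the 9 genes in CPM (y axis, linear from 0) in the RingKO libraries, left in red, and the WT libraries, right in blue; circles are replicate 1, triangles replicate 2 and lines the mean of 2. Krt25, Krt27, Krt28, Krt71, Krt73 and Gata3 lay lower in both RingKO libraries than in either WT library, Tchh overlapped, and Krt72 and Krt74 stayed at or below 5.25 CPM.

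Among the type I genes, Krt25 had 192 and 216 CPM in RingKO libraries and 461 and 449 CPM in WT libraries. The libraries of each genotype lay close together, and the highest RingKO value was below the lowest WT value by a factor of 2.08. The fitted log2 fold change of RingKO over WT was -1.16 ± 0.18 (SE), and the quasi-likelihood test of edgeR, adjusted by Benjamini-Hochberg over all genes tested, gave an adjusted p of 0.0798. Krt27 had 103 and 187 CPM in RingKO libraries and 374 and 332 CPM in WT libraries. Its RingKO libraries differed by 1.81-fold, yet both lay below the WT libraries (log2 fold change -1.28 ± 0.28, edgeR adjusted p = 0.147). Krt28 had 263 and 248 CPM in RingKO libraries and 597 and 438 CPM in WT libraries. Here the WT libraries were the more spread pair, and the log2 fold change was -1.02 ± 0.20 (edgeR adjusted p = 0.124).

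Of the type II genes, Krt71, which is mutated in curly-coated Caracul mice, had 433 and 378 CPM in RingKO libraries and 1063 and 811 CPM in WT libraries. Its groups were apart by a factor of 1.87 between the nearest libraries (log2 fold change -1.21 ± 0.20, edgeR adjusted p = 0.0835). Krt73, a keratin of the sheath cuticle, had 151 and 238 CPM in RingKO libraries and 424 and 291 CPM in WT libraries. The gap between its nearest libraries was the narrowest of the 5 keratins, 1.22-fold, and the log2 fold change was -0.88 ± 0.27 (edgeR adjusted p = 0.173).

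Krt72 and Krt74 were close to silent. Krt72, another cuticle keratin of the sheath, had 10 and 0 counts in RingKO libraries and 10 and 2 counts in WT libraries. Krt74 had 26 and 0 counts in RingKO libraries and 4 and 1 counts in WT libraries; RefSeq lists it as a transcribed pseudogene in the mouse. Neither passed the low-count filter, so neither was tested, and no direction is given. The 0 counts of RingKO replicate 2 allow a level of up to 0.373 CPM, counting error only. Keratins of 1 type resemble each other in sequence, and no source used here states how reads that map to several keratin genes were counted. RingKO replicate 2 held 4947 counts of Krt71 and Krt73 with 0 of Krt72 and Krt74, which allows a share of up to 0.0606% of the type II counts; in RingKO replicate 1 the share was 1.23% (exact 95% interval 0.863% to 1.70%), against 0.356% (0.195% to 0.597%) and 0.0908% (0.0187% to 0.265%) in the WT libraries.

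Tchh had 65.6 and 288 CPM in RingKO libraries and 159 and 230 CPM in WT libraries. The RingKO values lay on either side of the WT values, and the log2 fold change was -0.13 ± 0.65 (edgeR adjusted p = 0.961). Without RingKO replicate 1 it was 0.56, without WT replicate 2 it was 0.15, without RingKO replicate 2 it was -1.58 and without WT replicate 1 it was -0.36, so no direction is given. On the scale log2(CPM + 1) the distance between the 2 RingKO libraries, 2.12, was greater for Tchh than for 99.9% of the 3511 genes of at least 100 CPM on average. For Krt27 and Krt73, at 0.85 and 0.65, it was greater than for 99.0% and 96.4% of them, whereas Krt25, Krt28 and Krt71 stood at 0.17, -0.08 and -0.19. RingKO replicate 2 was thus the higher for Tchh, Krt27 and Krt73, by less for Krt25, and not for Krt28 or Krt71. Low genes beside them on the chromosome, chosen after their values were seen, went both ways: Krt72 and Krt74, next to Krt73, had 0 counts in RingKO replicate 2. Krt26, the keratin gene between Krt25 and Krt27, is also in the list of 22 other inner root sheath genes described below. It was higher in RingKO replicate 2 than in RingKO replicate 1. Its level was 0.808 and 13.7 CPM in RingKO and 0.759 and 2.34 CPM in WT libraries. The groups of Krt26 overlapped, and it was not tested. Tchhl1, the neighbour of Tchh, had 0 and 4.73 CPM in RingKO libraries and 0 counts in both WT libraries.

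Gata3 had 458 and 387 CPM in RingKO libraries and 712 and 570 CPM in WT libraries. Both RingKO libraries lay below both WT libraries, the nearest pair by a factor of 1.24, and the log2 fold change was -0.60 ± 0.19 (edgeR adjusted p = 0.180). Relative to Krt71, Gata3 was higher in the RingKO libraries, with a ratio of 1.06 and 1.02 in RingKO and 0.670 and 0.703 in WT libraries. The noncoding genes 4930412O13Rik and 9230102O04Rik overlap Gata3 in RefSeq, and whether counting used strand is not stated, so their reads cannot be told apart; 4930412O13Rik had 62.4 and 30.6 CPM in RingKO and 4.94 and 51.4 CPM in WT libraries. Gata3 is also a T cell factor, and over 13 T cell and innate lymphoid markers the summed level was 68.6 and 85.5 CPM in RingKO and 80.1 and 112 CPM in WT libraries. Most of that sum came from Lck, a T cell kinase, with 30.1 and 36.0 CPM in RingKO and 31.9 and 53.4 CPM in WT libraries, and from Thy1, which other cells also express, with 17.0 and 34.4 CPM in RingKO and 32.3 and 33.4 CPM in WT libraries. Of the T cell receptor genes, named after their values were seen, Cd3d had 4.04 and 3.49 CPM in RingKO and 4.18 and 5.67 CPM in WT libraries, while Cd3e, Cd3g and Cd247, with the receptor's kinase gene Zap70, were at 0 to 0.667 CPM in every library. The part of T cell RNA in the level of Gata3 was not tested.

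Of the 7 genes tested, 0 passed edgeR's test at an adjusted p under 0.05, where 0.00761% of the 13134 genes tested were called lower and 0.0533% higher at that threshold. Without adjustment 6 of the 7, all but Tchh, were lower at p under 0.05, against 8.16% of all genes tested lower and 8.47% higher. DESeq2, run as an alternative on the same genes, called the same 6 lower and 0 higher, against 7.04% of all genes called lower and 7.34% higher, with adjusted p from 2.19e-12 for Krt25 to 0.0116 for Krt73. Among the 3511 genes of at least 100 CPM on average, DESeq2 called 747 lower (21.3%) and 91 higher. Limma-voom called 0 of the 7, and 6 were lower without adjustment. The adjusted p over 11 alternatives ran from 2.19e-12 to 0.352 for Krt25, from 2.78e-06 to 0.227 for Krt27, from 1.07e-05 to 0.591 for Krt28, from 4.84e-08 to 0.472 for Krt71, from 0.00343 to 0.482 for Krt73 and from 0.00989 to 0.638 for Gata3. Without WT replicate 2 edgeR called Krt25, Krt28 and Krt71 lower (adjusted p = 0.0401, 0.0329 and 0.0151), where 0.119% of all genes were called lower and 0.300% higher; the WT arm is then 1 library, which is assumed to vary as the 2 RingKO libraries do, so these p-values hold no measure of WT spread. With no low-count filter it called the 5 abundant keratins lower, where 1.84% of all genes were called lower and 2.42% higher. With the replicate number as a block, although nothing pairs the libraries, it called 5 members lower, Krt25, Krt27, Krt28, Krt71 and Gata3, where 1.55% of all genes were called lower and 1.62% higher. In the authors' deposited table Krt25, Krt27, Krt28 and Krt71 carry the mark of lower genes, with log2 fold changes from -1.28 to -1.02. Of its genes with an adjusted p, 1.29% carry that mark and 7.35% carry the mark of higher genes. Krt73 and Gata3 carry neither mark, although the authors' DESeq2 adjusted p was 0.0128 for Krt73 and 0.00821 for Gata3. Their log2 fold changes there were smaller, -0.88 for Krt73 and -0.61 for Gata3.

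**Figure D2:**
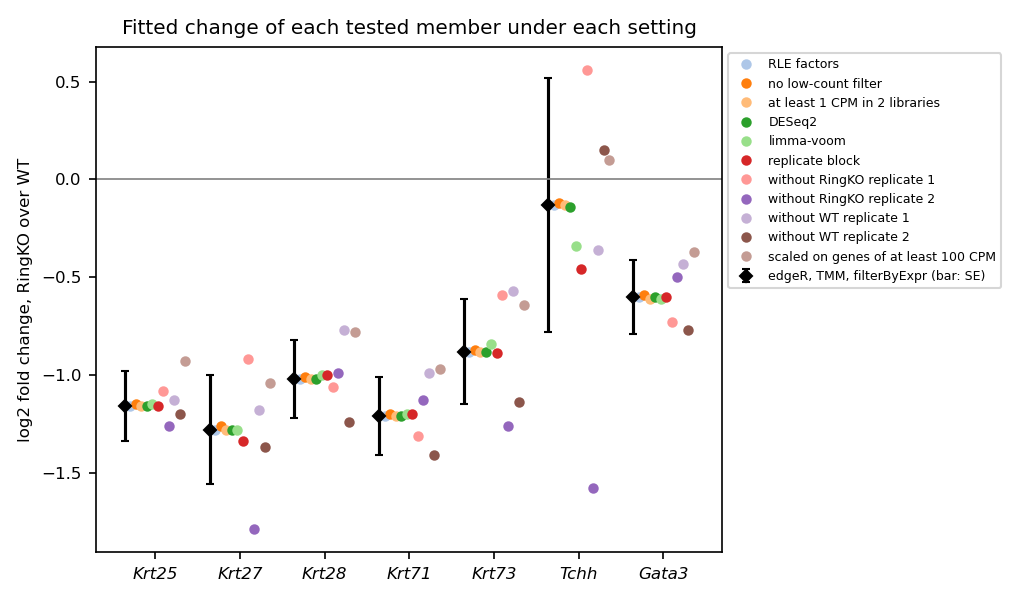
Fitted log2 fold change of RingKO over WT (y axis) of the 7 tested genes (x axis); black diamonds with SE bars are edgeR with TMM factors and the default low-count filter, and coloured points are the alternatives. Krt25, Krt27, Krt28, Krt71, Krt73 and Gata3 stayed below 0 in every setting shown, and Tchh ran from -1.58 to 0.56.

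The members' median log2 fold change was -1.02 over the 7 tested, against 0.03 over all genes tested. In 6 of the 7 the RingKO libraries lay below both WT libraries without overlap, a pattern found in 22.3% of all genes tested, with 24.8% higher without overlap. Abundant genes were lower in RingKO on balance. Among the 930 genes of at least 200 CPM on average, 60.5% lay lower and 7.74% higher without overlap. DESeq2 called 316 of these 930 lower (34.0%) and 14 higher. Among the 3511 genes of at least 100 CPM on average, which include all 7, the median was -0.24 and 46.1% lay lower without overlap. Read against those genes, a log2 fold change of -1 or below was uncommon: 27 of the 3511, or 0.769%, reached it, and Krt25, Krt27, Krt28 and Krt71 were 4 of these 27. Gata3 was not set apart in this way, since 15.7% of the abundant genes had a log2 fold change at or below its own. Scaling the libraries on the abundant genes, which was added with the values in view, put the median of all genes at 0.26 and moved the keratins to between -1.04 for Krt27 and -0.64 for Krt73, Gata3 to -0.37 and Tchh to 0.10. The direction of the 5 keratins and of Gata3 held under it. Over all genes, 1772 were then higher and 410 lower at an unadjusted p under 0.05 in edgeR, against 1112 higher and 1072 lower with TMM factors.

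Other genes of the inner root sheath were taken from a list of 22, of which 16 were tested. None passed edgeR's test. Without adjustment 4 were lower and 1 higher, against 8.16% lower and 8.47% higher over all genes tested. DESeq2 called 4 lower and 0 higher, against 7.04% and 7.34% of all genes. Of the 16, 9 had a log2 fold change above 0 and 7 below 0. Their median log2 fold change was 0.03, the same as over all genes tested. Dlx3, a homeobox factor of the hair matrix and inner root sheath, had 371 and 331 CPM in RingKO and 646 and 500 CPM in WT libraries, a log2 fold change of -0.70 ± 0.19 (edgeR adjusted p = 0.150, DESeq2 adjusted p = 0.00203). Cux1, a homeobox factor needed for inner root sheath differentiation in mice, had 785 and 641 CPM in RingKO and 986 and 761 CPM in WT libraries, and its groups overlapped. The other 3 that DESeq2 called were named after their values were seen. Tgm3, the transglutaminase that crosslinks trichohyalin, had 2.83 and 2.86 CPM in RingKO and 12.5 and 25.7 CPM in WT libraries, a log2 fold change of -2.74 ± 1.02 (edgeR adjusted p = 0.234, DESeq2 adjusted p = 0.00933). Tgm1, a transglutaminase of the cornified envelope, had 3.43 and 8.84 CPM in RingKO and 44.0 and 34.0 CPM in WT libraries (log2 fold change -2.65 ± 0.74, edgeR adjusted p = 0.154, DESeq2 adjusted p = 0.00112). S100a3, a calcium-binding protein best known from the hair cuticle, had 8.28 and 16.7 CPM in RingKO and 53.5 and 48.4 CPM in WT libraries. Padi3, which converts arginines of trichohyalin to citrulline, had 119 and 106 CPM in RingKO and 157 and 103 CPM in WT libraries, and its groups overlapped. Klk7, named after its values were seen, was the 1 higher without adjustment. It had 23.2 and 51.5 CPM in RingKO and 1.90 and 13.0 CPM in WT libraries. Its log2 fold change was 2.31 ± 0.94 (edgeR adjusted p = 0.267, DESeq2 adjusted p = 0.0513).

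**Figure D3:**
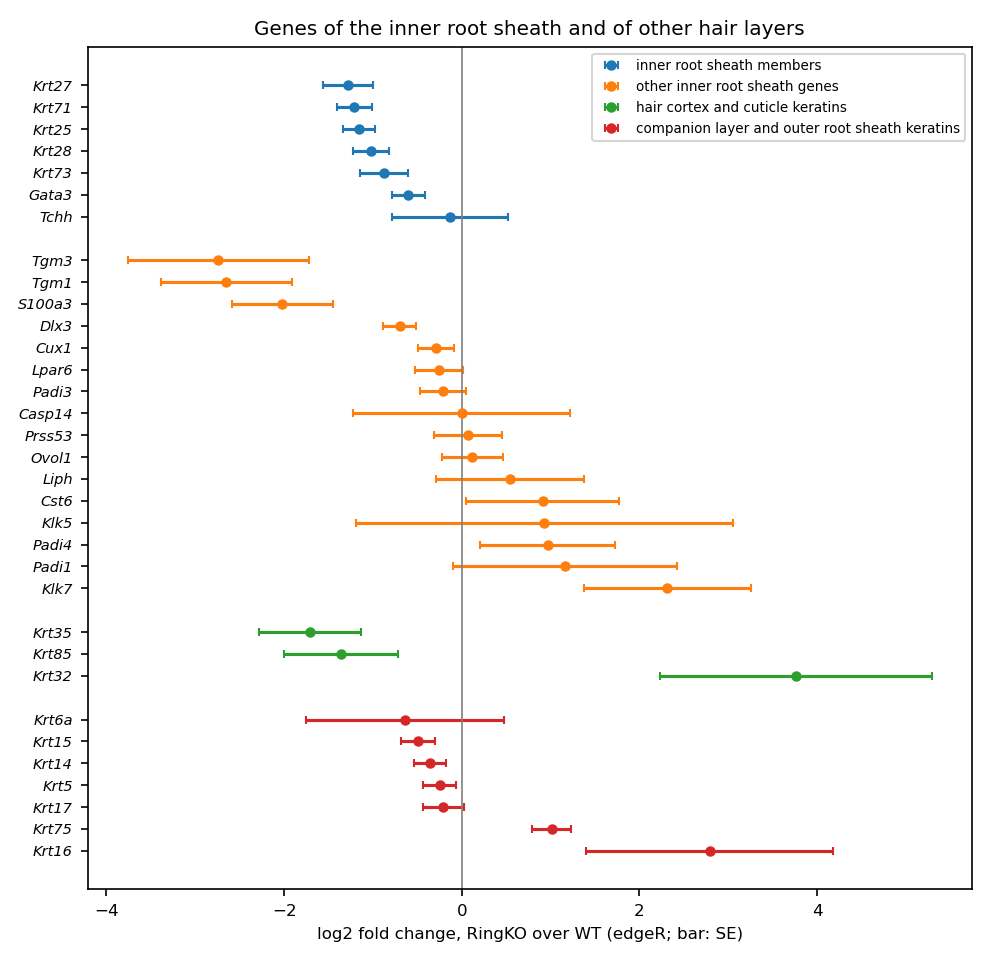
Fitted log2 fold change of RingKO over WT with SE bars (x axis; edgeR, 2 libraries per genotype) of the tested genes of 4 lists (y axis, ordered by value within a list). Of the inner root sheath members in blue, all but Tchh lay between -1.28 and -0.60. The list of other inner root sheath genes ran from -2.74 for Tgm3 to 2.31 for Klk7. The hair cortex and cuticle keratins stood at -1.71 for Krt35, -1.36 for Krt85 and 3.76 for Krt32, and Krt75 in red at 1.01.

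In the layers on either side of the sheath the keratins did not move as a block. Of 13 hair cortex and cuticle keratins with a row of counts, 3 were tested and 0 passed edgeR's test, 1 being higher and 1 lower without adjustment, with DESeq2 calling Krt35 lower and Krt32 higher. Krt35, an early keratin of the hair cortex and cuticle, had 20.2 and 13.6 CPM in RingKO and 76.3 and 34.0 CPM in WT libraries. Krt85, a matrix and cortex keratin, had 16.8 and 9.96 CPM in RingKO and 34.6 and 33.7 CPM in WT libraries (log2 fold change -1.36 ± 0.64, edgeR adjusted p = 0.335). In the companion layer and outer root sheath 7 of 8 genes were tested and 0 passed edgeR's test. Without adjustment 1 was higher and 1 lower, and DESeq2 called the same numbers. Over all genes tested, 8.47% were higher and 8.16% lower without adjustment, and DESeq2 called 7.34% higher and 7.04% lower. Krt5 had 364 and 306 CPM in RingKO and 430 and 364 CPM in WT libraries, and Krt17 had 387 and 269 CPM in RingKO and 431 and 330 CPM in WT libraries, both with a log2 fold change nearer 0 than that of any sheath keratin tested (-0.25 ± 0.19 and -0.21 ± 0.23). Krt75, the keratin of the companion layer that adjoins the inner root sheath, was named after its values were seen. It had 218 and 215 CPM in RingKO and 123 and 92.4 CPM in WT libraries, a log2 fold change of 1.01 ± 0.22 (edgeR adjusted p = 0.147, DESeq2 adjusted p = 6.38e-05). The difference between Krt75 and the sheath keratins was not tested.

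Among 20 regulators of the hair lineage, Runx1 passed edgeR's test, where 0.0533% of all genes tested were called higher. Without adjustment 3 were higher and 2 lower, against 8.47% and 8.16% of all genes tested. DESeq2 called the same numbers, against 7.34% and 7.04%. Runx1, Runx3 and Bmp4 were the higher 3 and Dlx3 and Shh the lower 2. Runx3, Bmp4 and Shh were named after their values were seen. Runx1, a factor of follicle stem cell activation, rose to 279 and 254 CPM in RingKO libraries, against 34.9 and 62.1 CPM in WT libraries (log2 fold change 2.45 ± 0.29, edgeR adjusted p = 0.0431). The edgeR call of Runx1 was lost without RingKO replicate 2. With limma-voom it was lost too, as limma-voom called 0 of 13134 genes (1956 passed unadjusted). In the Gata family, Gata3 was the member with the most counts in every library and was the one of 6 to lie lower in RingKO. Of the 6, 4 were tested and 0 passed edgeR's test, with 2 higher and 1 lower both unadjusted and in DESeq2. The shares over all genes tested were 8.47% higher and 8.16% lower unadjusted, and 7.34% and 7.04% in DESeq2. Gata4, a heart and endoderm factor, had 6.26 and 24.4 CPM in RingKO and 0 and 0.334 CPM in WT libraries. Gata2, a factor of blood and endothelium named after its values were seen, had 10.5 and 17.1 CPM in RingKO libraries and 0 counts in both WT libraries (edgeR adjusted p = 0.147 for Gata2 and 0.149 for Gata4, DESeq2 adjusted p = 0.000530 and 0.00533).

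Marker genes of other cell types were summed per library. Leukocyte markers, 17 with a row of counts, summed to 1010 and 407 CPM in RingKO and 200 and 212 CPM in WT libraries, with Lyz2 at 153 and 74.2 CPM in RingKO and 49.4 and 40.7 CPM in WT libraries and H2-Ab1, an antigen presentation gene, at 148 and 75.2 CPM in RingKO and 29.2 and 35.4 CPM in WT libraries. Cd207, the Langerhans cell gene, was at 0 in all 4 and was named after its values were seen. Fibroblast and dermal papilla markers (11) summed to 385 and 217 CPM in RingKO and 650 and 811 CPM in WT libraries, most of it from Dcn, with 272 and 159 CPM in RingKO and 593 and 430 CPM in WT libraries. The collagen gene Col1a2 had 13.5 and 5.98 CPM in RingKO and 11.4 and 139 CPM in WT libraries, so that WT replicate 2 stood apart. Of the 8 fibroblast genes tested, 4 had a log2 fold change above 0 and 4 below. Without overlap 2 lay higher and 1 lower, against 24.8% and 22.3% of all genes tested. The higher 2, named after their values were seen, were Pdgfra and Pdgfrb. Pdgfra had 6.66 and 12.2 CPM in RingKO and 0.380 and 6.34 CPM in WT libraries. Pdgfrb had 3.23 and 17.4 CPM in RingKO and 0 and 1.33 CPM in WT libraries. Endothelial markers (8) summed to 2.83 and 0.747 CPM in RingKO and 14.8 and 52.1 CPM in WT libraries. The vessel receptor gene Tek had 2.02 and 0.249 CPM in RingKO and 13.3 and 4.34 CPM in WT libraries, and Kdr, another, had 0.202 and 0.249 CPM in RingKO and 1.14 and 13.0 CPM in WT libraries. Follicle stem cell markers (13) summed to 1727 and 1494 CPM in RingKO and 1340 and 1588 CPM in WT libraries, and these ranges overlapped. Of the 12 tested, 0 passed edgeR's test, and 4 lay higher and 3 lower without overlap. DESeq2 called Lgr5, Sox9 and Nfatc1 higher and Krt15 lower, against 7.34% and 7.04% of all genes. Sox9 and Nfatc1 were named after their values were seen. Sox9 had 172 and 156 CPM in RingKO and 49.4 and 95.1 CPM in WT libraries. Nfatc1 had 38.8 and 34.0 CPM in RingKO and 0 and 2.34 CPM in WT libraries. Krt15, a keratin of bulge stem cells, had 303 and 250 CPM in RingKO and 417 and 362 CPM in WT libraries, and Tcf7l2, a Wnt pathway factor, had 363 and 267 CPM in RingKO and 312 and 350 CPM in WT libraries. Of the melanocyte markers, Kit had 117 and 87.0 CPM in RingKO and 127 and 109 CPM in WT libraries, and Mitf had 43.0 and 10.3 CPM in RingKO and 20.5 and 15.4 CPM in WT libraries. The interfollicular marker Sbsn had 37.8 and 62.1 CPM in RingKO and 42.9 and 51.7 CPM in WT libraries, and overlapped. The sebocyte lipid genes Scd1 and Fasn had 252 and 266, and 300 and 254 CPM in RingKO, against 374 and 309, and 297 and 278 CPM in WT libraries. The part of these cells in the sheath genes' levels was not tested.

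**Figure D4:**
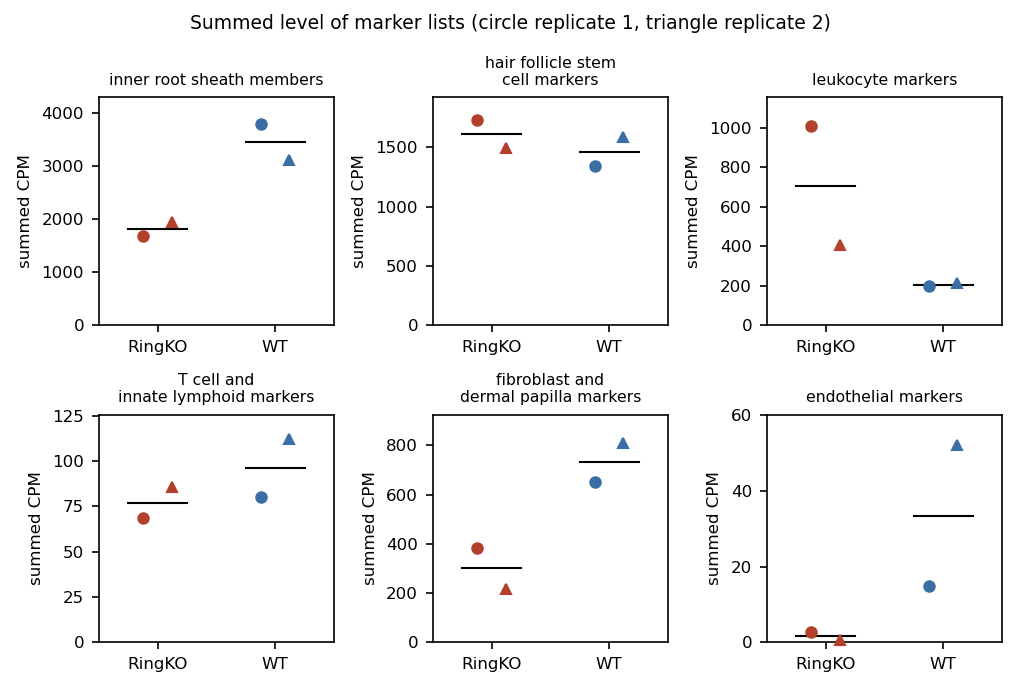
Summed CPM (y axes, linear from 0, a scale per panel) of 6 gene lists in the RingKO libraries, left, and the WT libraries, right; circles are replicate 1, triangles replicate 2 and lines the mean of 2. The sums of the inner root sheath genes and of the fibroblast and endothelial markers lay lower in RingKO. The leukocyte sum lay higher, and the stem cell and T cell panels overlapped. Single genes of a list can differ from its sum.

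Genes of most like pattern were sought among 10422 tested genes of at least 10 CPM, by the Euclidean distance of log2(CPM + 1), centred on each gene's mean, over the 4 libraries. Nearest to the summed keratins was Aox4, an aldehyde oxidase, with 20.4 and 21.4 CPM in RingKO and 55.1 and 37.7 CPM in WT libraries, at a distance of 0.153. Fam26e, Fdps, Angpt2 and Errfi1 followed at distances of 0.172 to 0.201. Nearest to Gata3 were Mat2a, Dlat, Eif3g, Uqcrc1 and Fkbp4, at distances of 0.0340 to 0.0477, which are genes of general metabolism, translation and protein folding; Mat2a had 325 and 283 CPM in RingKO and 516 and 415 CPM in WT libraries. With 4 libraries many genes share a profile, and the likeness is a description.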

How the data were processed

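RNA-seq counts per gene symbol that the authors deposited (whole numbers, 23377 genes) were used for 2 RingKO and 2 WT libraries. The submitters' processing notes name TopHat2 2.1.1, HTSeq 0.7.2 and DESeq2 with build mm9; no source used here gives their settings, annotation or strand use. The deposited normalized signal is those counts divided by 1 constant per library. The authors' deposited table holds, per the file headers, log2 fold changes with SE, a test score (stat) and raw and adjusted p-values.

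The test was edgeR 4.0.16 in R 4.3.3, with filterByExpr (13134 genes kept), TMM factors, robust glmQLFit and glmQLFTest with genotype as the only term, and Benjamini-Hochberg adjustment over all genes tested, with a threshold of 0.05. SE is the absolute log2 fold change divided by root F. DESeq2 1.42.0, limma-voom 3.58.1, other filters, other scaling, the replicate block and leaving out each library were alternatives. Promoters were aligned with Biopython 1.88 in Python 3.11.15. A 0 count was given a limit of 3 counts. Total counts ran from 2785843 to 7740945.

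By rule the text names all 9 members, Ring1 and Rnf2, up to 4 genes edgeR called in each other list or else its 2 most abundant, and the 5 genes most like the keratin sum and Gata3; other genes named, neighbours included, were chosen after their values were seen. Members and lists were chosen with earlier results of these data known. Of the lists, melanocyte, interfollicular and sebocyte markers summed to 187 and 133, 117 and 146, and 785 and 723 CPM in RingKO libraries, and to 194 and 197, 88.5 and 139, and 1013 and 875 CPM in WT libraries. The Ring1b peak lists were not used here, for want of an mm9 gene annotation.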

Additional observations from a re-analysis of the deposited data

How the results depend on the processing

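The log2 fold changes of Krt25, Krt27, Krt28, Krt71, Krt73 and Gata3 stayed negative under all 11 alternatives, and that of Tchh, -1.58 without RingKO replicate 2, turned positive without RingKO replicate 1 (0.56), without WT replicate 2 (0.15) and with scaling on genes of at least 100 CPM (0.10). The number of members called, 0 of 7 in edgeR, was 6 with DESeq2, 5 with no low-count filter (Krt25, Krt27, Krt28, Krt71 and Krt73) and 0 to 3 without a library; limma-voom, RLE factors and a minimum of 1 CPM in any 2 libraries gave 0. Over all genes edgeR called 8, against 1888 with DESeq2, 802 with no filter, 1 with that minimum, 13 with scaling on abundant genes, 0 with limma-voom (1956 unadjusted) and 0 to 60 without a library (0 without RingKO replicate 2, where 1098 passed unadjusted); a genotype left with 1 library is assumed to vary like the other. The labels number the replicates 1 and 2 in both genotypes, with no word that a number marks a shared mouse, litter or day. With these numbers as a replicate block edgeR called 416 genes and 5 members, Krt25, Krt27, Krt28, Krt71 and Gata3. Deviations from the group means of same-numbered libraries correlated at -0.14 over 13134 genes; with crossed pairs, a setting added after the data were seen, 8 genes and 0 members were called. The RingKO mean of the summed keratins, 1208 CPM, was 1309 CPM with scaling on abundant genes. The cause of these differences was not tested. With 2 libraries per genotype, an effect of 1 library cannot be told from that of genotype.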

Other observations

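The 4 type II members lie side by side in the order Krt71, Krt74, Krt72 and Krt73 on chromosome 15, between Krt5 and Krt2, and the type I members lie on chromosome 11 with Krt26 between Krt25 and Krt27 and with Krt10 next to Krt28 (gene order of RefSeq on GRCm38.p6). The 4 keratin genes that border these runs are Krt24, Krt10, Krt5 and Krt2. Krt24 and Krt2 had 0 CPM in a WT library, so they could not lie lower in RingKO without overlap. Krt10 and Krt5 overlapped. For Krt5 the highest RingKO and the lowest WT library were both at 364 CPM, so the overlap was slight. Krt10, a keratin of differentiating epidermis, had 62.0 and 54.3 CPM in RingKO and 38.7 and 58.7 CPM in WT libraries, and its groups overlapped as those of Krt5 did. Krt2, a keratin of the upper epidermis, had 0.202 and 0.249 CPM in RingKO and 0 and 8.01 CPM in WT libraries, and Krt24 was at 0 to 0.124 CPM in all 4. Of 18 keratin genes tested outside the members, 6 lay higher and 5 lower in RingKO without overlap, with a median log2 fold change of -0.11. Over all genes tested 24.8% lay higher and 22.3% lower without overlap.

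Past the noncoding genes that overlap Gata3 lies Taf3, a subunit of a general transcription factor, which had 106 and 149 CPM in RingKO and 78.2 and 95.8 CPM in WT libraries. Beyond Tchhl1, the S100 genes S100a11 and S100a10 lay lower in RingKO without overlap: S100a10 had 114 and 94.0 CPM in RingKO and 182 and 181 CPM in WT libraries (edgeR adjusted p = 0.149, DESeq2 adjusted p = 0.000931). Over all genes tested 22.3% lay lower without overlap, and among the 3511 genes of at least 100 CPM on average 46.1% did.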
